A study of Homo sapiens with 9 samples.

Results

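The genes described here are 54 immediate early, Krüppel-like factor (KLF), SP factor and MAP kinase feedback genes, taken by their symbols from an expression table of 57766 genes. All 54 were found in the table, and 50 of them passed a filter of at least 1 RPKM (reads scaled by transcript length and by the size of the library) in at least 3 libraries. EGR2, EGR3, EGR4 and SPRY4 stayed below it in every library and were not tested.

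The study asked how a cell line responds when Zn(II) is withheld. HEK293 Freestyle cells, the source of the polyadenylated RNA, are an embryonic kidney line transformed with adenovirus DNA and grown in suspension. Before the 36 h of treatment all cells shared the same culture in ordinary Freestyle medium and the same washes in PBS. Depleted cells then stood for 36 h in Freestyle medium from which Zn(II) had been removed, repleted cells in depleted medium to which Zn(II) was given back, and full cells in untreated Freestyle medium. Each group held 3 biological replicates, 9 libraries in all. The labels used here do not state how the zinc was removed or how much was returned, and they mention a wash with EDTA, a metal chelator, and PBS without making clear what was washed. A single line at 1 time limits the design as a model, since it gives no time course.

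Immediate early genes are transcribed within minutes of a growth factor or a stress, without new protein synthesis, when MAP kinases act on factors already bound to their promoters. FOS and JUN proteins pair as the AP-1 factor, SRF and EGR1 carry the signal to further genes, and DUSP phosphatases and SPRY and SPRED proteins switch the kinases off again. KLF, SP and EGR proteins bind GC-rich DNA through zinc fingers, each of which folds around a Zn(II) ion. HEK293 cells are widely used to study this pathway.

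Promoter sequences are shown for a choice of members with called differences, in which the sites of these factors can be read in the letters. CTGF, the member that differed most, is not shown. They come from RefSeq on GRCh38.p14, while the expression values rest on hg19 (GRCh37) according to the processing notes, so only the promoter windows carry coordinates. Each line gives the 250 bases before 1 RefSeq transcription start. Capitals mark CArG boxes (the SRF site) in EGR1 and SRF, GC boxes (the SP and KLF site, GGGCGG on either strand) in SP1, KLF15 and KLF11, and a cyclic AMP response element (CRE, TGACGTCA) in DUSP1.
EGR1 (chr5:138465229-138465478, plus strand): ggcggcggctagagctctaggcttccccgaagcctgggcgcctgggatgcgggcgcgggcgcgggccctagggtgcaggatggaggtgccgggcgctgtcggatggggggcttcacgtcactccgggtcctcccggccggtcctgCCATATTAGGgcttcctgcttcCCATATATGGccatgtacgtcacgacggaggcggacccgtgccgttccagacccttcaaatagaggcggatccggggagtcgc
SRF (chr6:43171019-43171268, plus strand): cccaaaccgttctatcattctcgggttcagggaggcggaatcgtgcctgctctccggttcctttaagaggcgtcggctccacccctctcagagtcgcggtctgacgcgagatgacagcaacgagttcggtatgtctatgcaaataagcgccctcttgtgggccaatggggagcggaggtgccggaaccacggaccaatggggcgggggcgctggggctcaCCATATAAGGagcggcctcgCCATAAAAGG
SP1 (chr12:53380394-53380643, plus strand): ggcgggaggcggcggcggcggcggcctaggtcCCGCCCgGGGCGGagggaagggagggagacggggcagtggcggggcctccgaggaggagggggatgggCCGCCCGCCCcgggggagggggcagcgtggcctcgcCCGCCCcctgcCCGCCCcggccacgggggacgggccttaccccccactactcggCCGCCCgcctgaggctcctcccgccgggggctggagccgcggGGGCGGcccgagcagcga
KLF15 (chr3:126357409-126357658, minus strand): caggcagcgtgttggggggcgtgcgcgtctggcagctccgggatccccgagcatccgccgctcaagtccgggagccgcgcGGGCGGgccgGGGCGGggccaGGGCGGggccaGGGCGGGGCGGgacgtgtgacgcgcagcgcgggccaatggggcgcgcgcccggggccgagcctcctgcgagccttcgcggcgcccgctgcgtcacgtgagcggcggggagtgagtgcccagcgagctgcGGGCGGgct
KLF11 (chr2:10043971-10044220, plus strand): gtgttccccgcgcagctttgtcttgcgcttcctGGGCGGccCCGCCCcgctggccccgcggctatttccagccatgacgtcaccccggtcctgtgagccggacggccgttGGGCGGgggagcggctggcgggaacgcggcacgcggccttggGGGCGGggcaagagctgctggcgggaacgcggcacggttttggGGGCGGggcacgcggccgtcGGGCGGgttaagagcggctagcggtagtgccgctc
DUSP1 (chr5:172771196-172771445, minus strand): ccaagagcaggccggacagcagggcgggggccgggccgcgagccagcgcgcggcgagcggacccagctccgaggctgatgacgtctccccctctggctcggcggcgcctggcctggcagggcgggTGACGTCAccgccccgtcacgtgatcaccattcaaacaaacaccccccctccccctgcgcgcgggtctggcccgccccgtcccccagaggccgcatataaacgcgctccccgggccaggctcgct
The EGR1 and SRF windows each held 2 CArG boxes, those of EGR1 beginning 105 and 83 bases and those of SRF 30 and 10 bases before the start. SP1 held 8 GC boxes, and KLF15 and KLF11 held 6 each. SP1, KLF11 and SRF have 2 windows each, and the one richer in the marked site is printed. The other window held 4 GC boxes for SP1, 2 GC boxes for KLF11 and 0 CArG boxes for SRF. DUSP1 held 1 CRE, 125 bases before the start.

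Promoter windows of 250 bases before to 50 bases after a start were found for 44 of the 54 members, 65 windows in all, and were set beside all 34943 windows of the RefSeq table. A GC box (GGGCGG) stood in 70.8% of the member windows and 44.9% of all windows. An EGR site (GCGNGGGCG), which can share bases with a GC box, stood in 24.6% of member windows and 9.41% of all windows. The CACCC box (CCACACCC), another sequence bound by KLF factors, stood in 0% of member windows and 3.28% of all windows. A CRE (TGACGTCA) stood in 7.69% of member windows and 1.84% of all, and a CArG box, searched by name, in 6.15% of member windows and 1.3% of all. CArG boxes were found for EGR1, EGR2, KLF7 and SRF. The AP-1 site (TGANTCA) stood in 4.62% of member windows and 7.72% of all windows, and the core of the metal response element (TGCNCNC) in 60% of member windows and 55.9% of all. Both strands were searched, and windows of 1 gene can overlap, so these shares are a description of letters and name no bound factor.

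The treatment could be read in the zinc genes. MT2A, a metallothionein, averaged 6.46 RPKM in depleted, 93.5 in repleted and 191 in full libraries, and the zinc importer SLC39A10 averaged 49.9 RPKM in depleted, 14.9 in repleted and 17.2 in full libraries. The depth, estimated from the spacing of low values, lay between 16900000 and 23400000 reads. Summed HEK293 markers stood at 858 to 884 RPKM in depleted, 846 to 871 in repleted and 863 to 875 in full libraries, but most of that sum is VIM, at means of 665 RPKM in depleted, 585 in repleted and 577 in full libraries. Of the 8 markers, 5 were lower in depleted against full medium (KRT8, KRT18, PAX2, LHX1 and NEFL), VIM and CDH2 were higher and NEFM was not called. NEFL averaged 6.53 RPKM in depleted, 31.9 in repleted and 31.8 in full libraries, and PAX2 passed the filter only through repleted and full libraries. Of 5 fibroblast markers only COL1A1 and LUM passed the filter, and the 5 summed to 11.3 to 14.2 RPKM in depleted, 24.2 to 25.4 in repleted and 26.5 to 29.7 in full libraries. The part of these marker differences in the results below was not tested. Summed blood markers stayed at or below 1.29 RPKM in every library.

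In depleted against full medium, 23 of the 50 tested members were higher, 10 were lower and 17 were not called (limma, Benjamini-Hochberg adjusted p under 0.05 over all 15774 tested genes). The members' shares were 46% higher and 20% lower, while among all tested genes 29.8% were higher and 31.2% were lower. The median difference of the members was 0.25 on the log2(RPKM + 1) scale, against 0 for all tested genes, and their median size regardless of sign was 0.54 against 0.36. That scale understates the differences of weakly expressed genes, so fold changes are also given below as ratios of mean RPKM. A rise of at least 0.5 was called for 20 members and a fall of at least 0.5 for 5. FOSL2, whose fall rounds to -0.5, fell short of that size and is not counted.

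The same depleted libraries set against repleted medium gave 25 members higher, 11 lower and 14 not called. Of all tested genes, 29.5% were higher and 31.2% lower in that comparison. The comparisons share the depleted libraries, so their values are given side by side and not as separate evidence. In repleted against full medium, 0 of 50 members were called in either direction, where 0% of all tested genes were called higher and 0.0317% lower. In bulk RNA, a change in how many cells express a gene and a change in the amount per cell cannot be told apart.

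**Figure D1:**
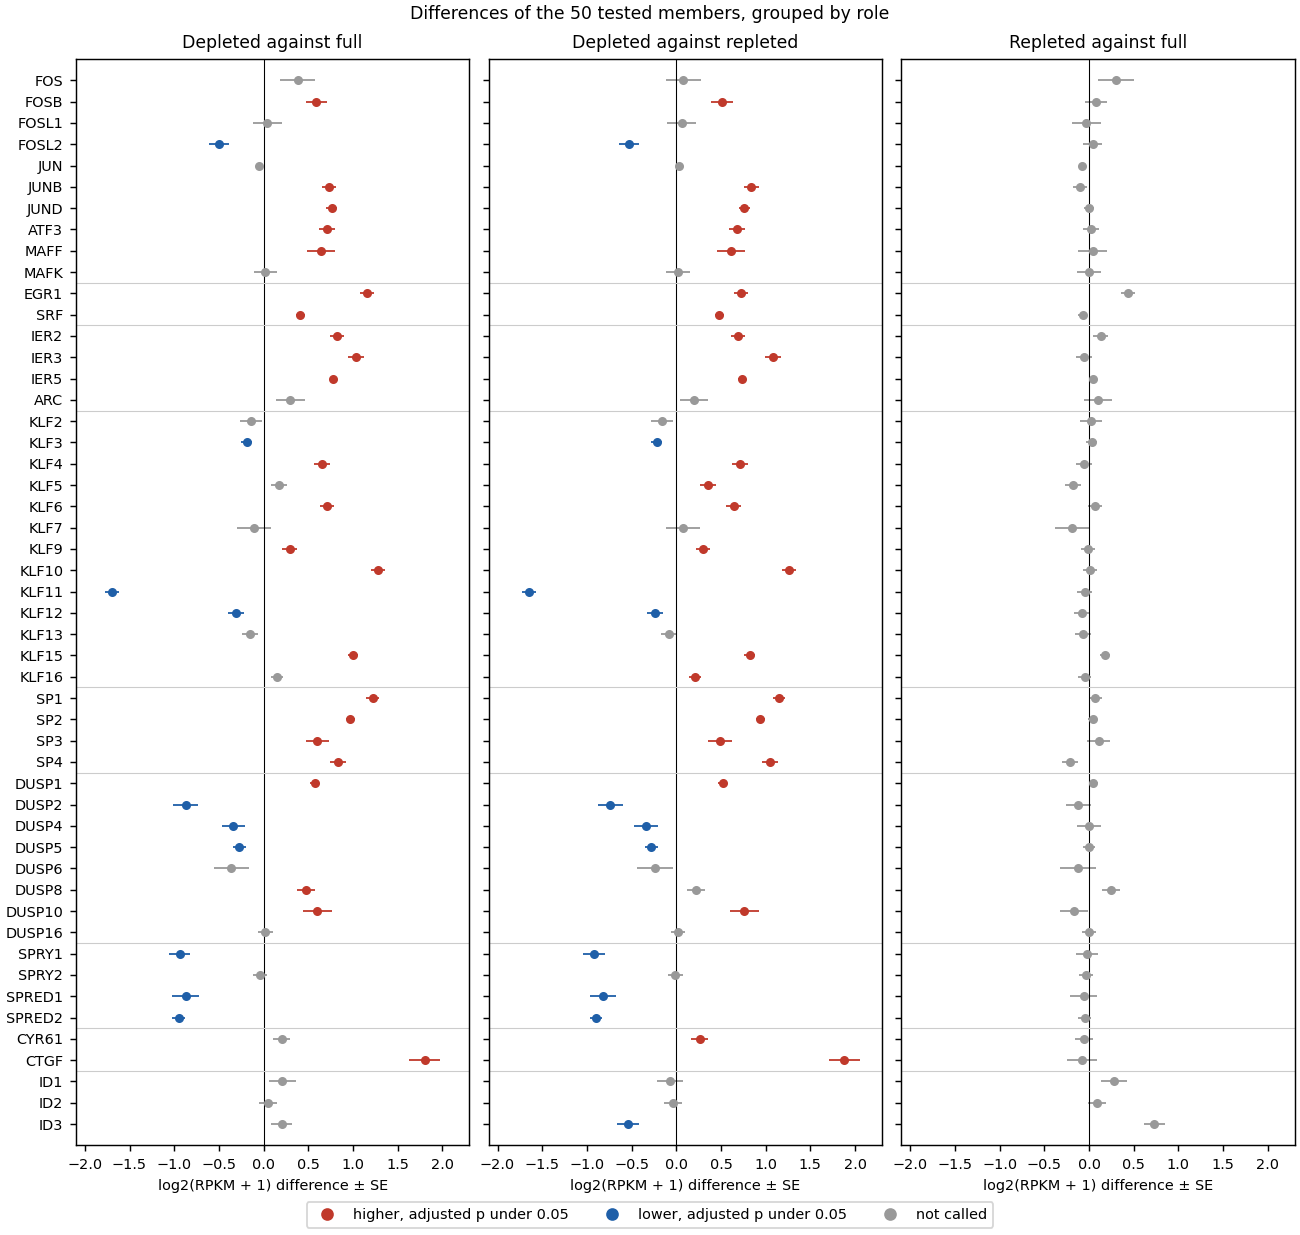
Difference of each of the 50 tested members on the log2(RPKM + 1) scale (x axis) with its standard error, in 1 panel per comparison, with the depleted cells set against each other medium first and the zinc-returned cells last. Red and blue points passed a limma adjusted p of 0.05 and grey points did not, and in the last panel all points are grey.

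**Figure D2:**
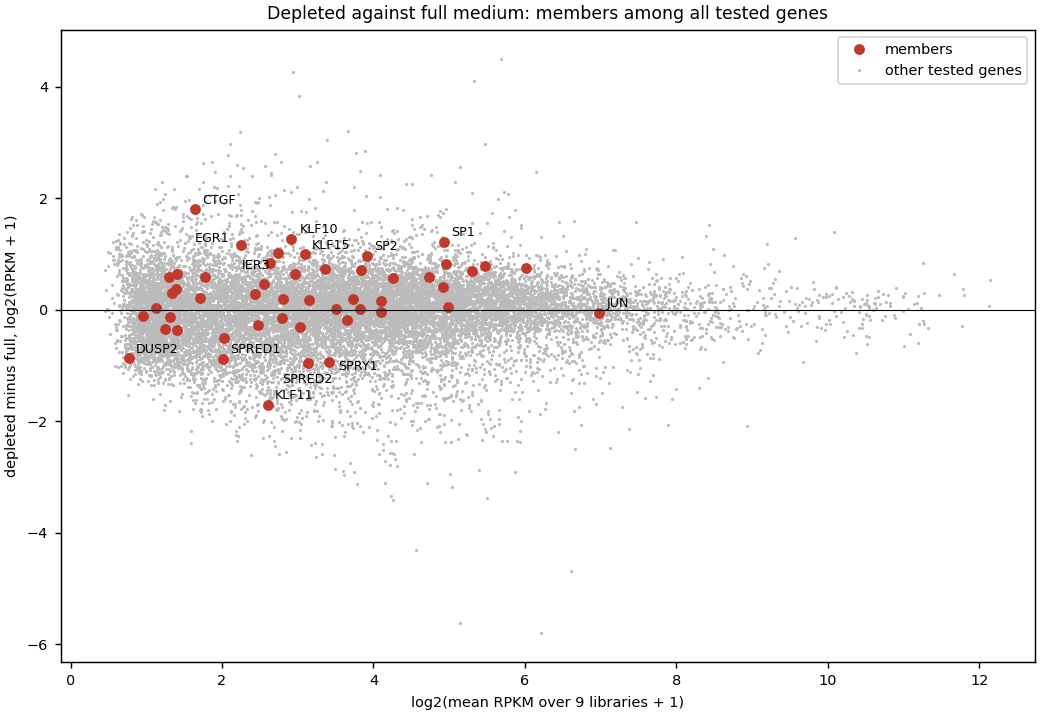
Depleted minus full difference on the log2(RPKM + 1) scale (y axis) against the log2 of mean RPKM plus 1 over 9 libraries (x axis) for every tested gene, members in red and other genes in grey. CTGF, at 1.8, and KLF11, at -1.7, lie farthest from 0 among the members, while JUN, the most abundant member, lies close to 0.

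Among the AP-1 subunits and related leucine zipper factors, 5 of 10 rose in depleted against full medium, 1 fell and 4 were not called. Among all tested genes 29.8% were higher and 31.2% lower. The summed level of the 10 factors was 298 ± 6.29 RPKM in depleted, 232 ± 9.84 in repleted and 238 ± 4.24 in full libraries (SD, n = 3 each). JUNB, a JUN protein that is a weaker activator than JUN itself, had 13.7, 12.2 and 13.7 RPKM in depleted libraries, 6.75, 7.12 and 6.98 in repleted libraries and 6.86, 8.41 and 7.41 in full libraries. All 3 depleted libraries lay above all 6 others, with a mean 1.75-fold higher than that of full libraries (log2 difference 0.73, SE 0.08, limma adjusted p = 3.96e-05). JUND, the JUN protein made steadily in most cells, had 87.4, 87.8 and 88.7 RPKM in depleted libraries, 56.3, 51.1 and 48 in repleted libraries and 49.7, 54 and 51.2 in full libraries. Its depleted libraries were tightly grouped and apart from the rest, at a 1.7-fold higher mean than in full medium (log2 difference 0.76, SE 0.06, limma adjusted p = 2.89e-06). ATF3, a stress-induced relative of the CREB factors, had 45.7, 52.4 and 57.8 RPKM in depleted libraries, 33.9, 33.1 and 28.8 in repleted libraries and 33.8, 31.5 and 28.9 in full libraries. The lowest depleted library still exceeded the highest of the other 6, and the depleted mean was 1.66-fold higher than the full mean (log2 difference 0.71, SE 0.09, limma adjusted p = 0.000146).

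FOSB, a FOS protein that pairs with JUN proteins, had 1.98, 2.15 and 2.25 RPKM in depleted libraries, 1.32, 1.1 and 1.19 in repleted libraries and 1.08, 0.92 and 1.26 in full libraries. Depleted libraries did not overlap with the others although every level was low, with a mean 1.96-fold higher than that of full libraries (log2 difference 0.59, SE 0.12, limma adjusted p = 0.002). MAFF, a small MAF protein with no activation domain of its own, had 2.62, 2.17 and 2.59 RPKM in depleted libraries, 1.12, 1.65 and 1.07 in repleted libraries and 1.01, 1.63 and 1.04 in full libraries. Its second repleted and second full libraries stood above their partners but below every depleted library, at a 2.01-fold higher mean than in full medium (log2 difference 0.64, SE 0.16, limma adjusted p = 0.00533). FOSL2, also known as FRA-2, was the AP-1 subunit that fell, with 2.15, 2.16 and 2.17 RPKM in depleted libraries, 4.17, 3.27 and 3.34 in repleted libraries and 3.29, 3.26 and 3.84 in full libraries. The depleted values were nearly equal and below all others, and the depleted mean was 1.6-fold lower than the full mean (log2 difference -0.5, SE 0.11, limma adjusted p = 0.00281). In depleted against repleted medium the same 5 factors were higher and FOSL2 was lower. The log2 differences there were 0.84 for JUNB, 0.76 for JUND, 0.68 for ATF3, 0.51 for FOSB, 0.61 for MAFF and -0.53 for FOSL2, with limma adjusted p between 2.93e-06 and 0.00729.

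JUN itself was the most abundant member, with 126.6, 122.1 and 125.2 RPKM in depleted libraries, 123.1, 120.2 and 122.0 in repleted libraries and 129.2, 129.5 and 128.7 in full libraries. Its depleted libraries lay just below the full ones without overlap, yet the log2 difference was only -0.05 and was not called (limma adjusted p = 0.129). FOS, its classical partner, was low, with 1.98, 2.12 and 1.57 RPKM in depleted libraries, 1.99, 1.76 and 1.44 in repleted libraries and 1.07, 0.74 and 2.01 in full libraries. Full replicate 3 reached the depleted range, and the log2 difference of 0.38 was not called (limma adjusted p = 0.127). Without that library it was called (limma adjusted p = 0.0127). FOSL1 and MAFK were not called either, with log2 differences of 0.04 and 0.02, and their groups overlapped.

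**Figure D3:**
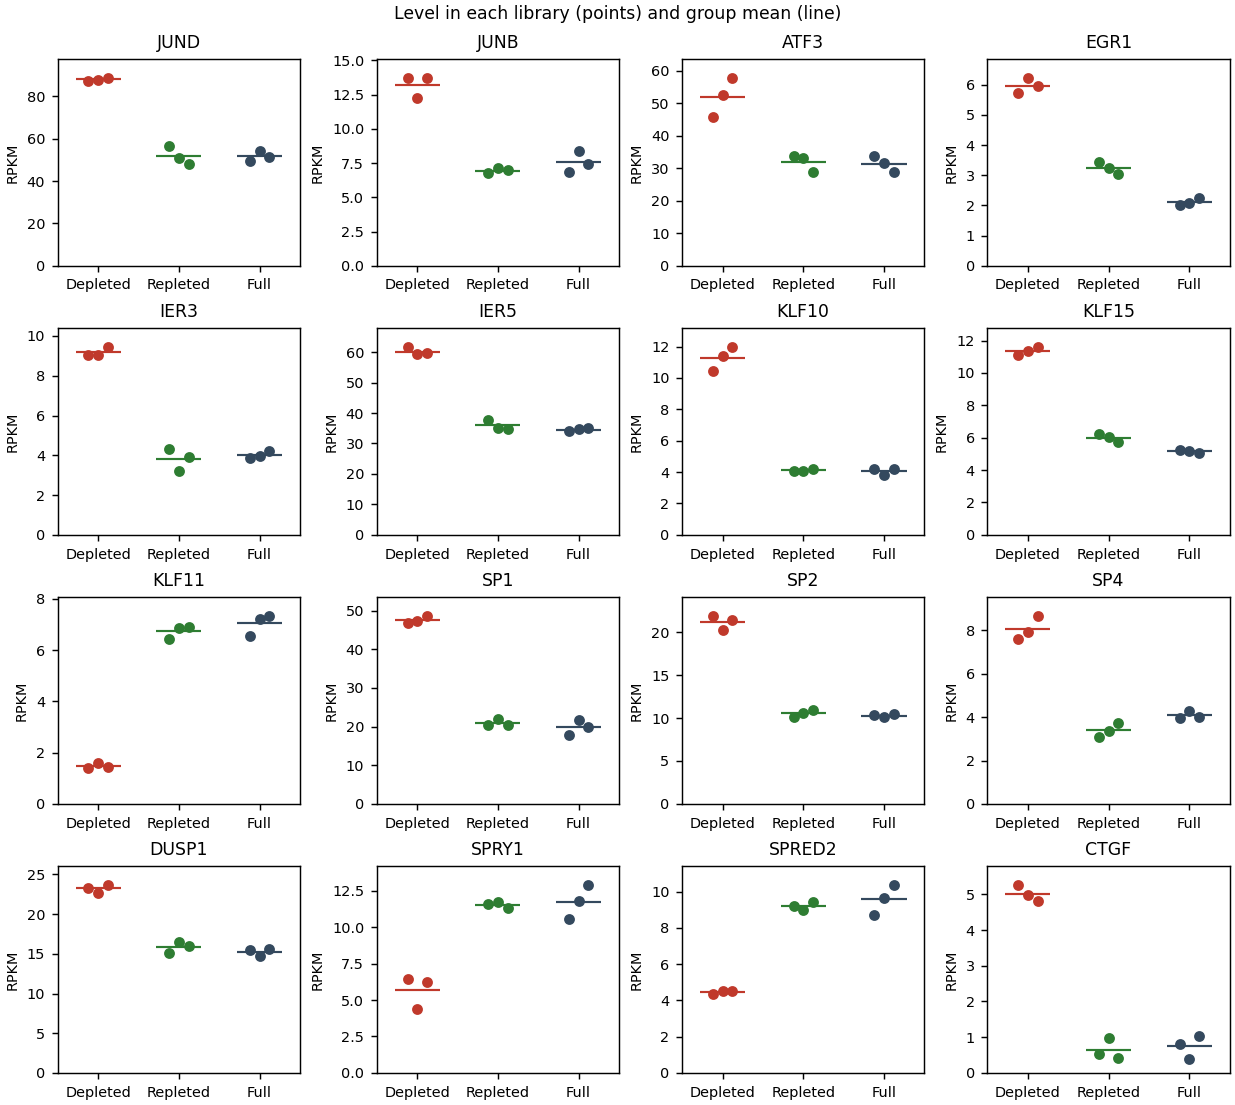
RPKM of 16 members in each library (points) with the group mean (line), depleted on the left, then repleted and full, each axis starting at 0. In all 16 the depleted points stand apart from the other 6, below them for KLF11, SPRY1 and SPRED2 and above them for the other members drawn. The 16 were picked from members called in depleted against full medium, so their separation is no separate result. Members whose groups overlapped, such as FOS, ARC, DUSP6 and ID2, are not drawn.

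Of the EGR factors and SRF, the 2 that were tested both rose in depleted against full medium, where 29.8% of all tested genes were higher. EGR1, a zinc finger factor induced through SRF, had 5.73, 6.23 and 5.95 RPKM in depleted libraries, 3.43, 3.25 and 3.04 in repleted libraries and 2.03, 2.08 and 2.24 in full libraries. Here all 3 groups stood apart, depleted highest, repleted between and full lowest. The depleted mean was 2.82-fold higher than the full mean (log2 difference 1.16, SE 0.08, limma adjusted p = 2.39e-06), and the log2 difference from repleted medium was 0.72 (limma adjusted p = 6.13e-05). Repleted libraries were above full ones by 0.44 on the log2 scale, which was not called (limma adjusted p = 0.292). SRF, with CArG boxes in the window printed above, had 35.5, 35.1 and 36.1 RPKM in depleted libraries, 25.9, 24.6 and 25.4 in repleted libraries and 25, 26.9 and 28 in full libraries. Its rise was smaller but clear of the spread, with a mean 1.34-fold higher than that of full libraries (log2 difference 0.41, SE 0.05, limma adjusted p = 7.25e-05). The log2 difference from repleted medium was 0.48 (limma adjusted p = 2.46e-05).

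The other EGR genes were barely detected. EGR2 ranged from 0.05 to 0.13 RPKM in depleted, 0.11 to 0.27 in repleted and 0.07 to 0.24 in full libraries. EGR3 had 0.34, 0.38 and 0.55 RPKM in depleted libraries, 0.21, 0.2 and 0.12 in repleted libraries and 0.23, 0.34 and 0.18 in full libraries. Depleted and repleted libraries did not overlap, while the lowest depleted library equalled the highest full one. EGR4 had 0.24, 0.04 and 0.18 RPKM in depleted libraries, while it was listed at 0 in all 3 repleted and in 2 full libraries and at 0.02 RPKM in the remaining full library. With no filter on low values EGR4 was called higher against both media (limma adjusted p = 0.0422 against full and 0.0348 against repleted) and EGR3 against repleted medium only (limma adjusted p = 0.0453 and, against full, 0.162). At such levels a value rests on few reads.

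The genes IER2, IER3 and IER5, named for their immediate early response, all rose in depleted against full medium, where 29.8% of all tested genes were higher. ARC, known from active neurons, was not called. Together the 4 summed to 113 ± 1.18 RPKM in depleted, 66.7 ± 4.89 in repleted and 63 ± 1.88 in full libraries (SD, n = 3 each). IER5, the most abundant of them, had 61.7, 59.2 and 59.6 RPKM in depleted libraries, 37.8, 35.2 and 34.8 in repleted libraries and 33.9, 34.6 and 35.2 in full libraries. The groups of depleted and other libraries were far apart, at a 1.74-fold higher mean than in full medium (log2 difference 0.78, SE 0.04, limma adjusted p = 3.66e-07). IER2 had 41.2, 42.5 and 41 RPKM in depleted libraries, 29, 24.5 and 23 in repleted libraries and 21.9, 25 and 22.5 in full libraries. The first repleted library was the highest of the others and still well below the depleted ones, and the depleted mean was 1.8-fold higher than the full mean (log2 difference 0.82, SE 0.08, limma adjusted p = 1.96e-05). IER3, which is linked to ERK signalling and cell survival, had 9.04, 9.06 and 9.45 RPKM in depleted libraries, 4.33, 3.23 and 3.92 in repleted libraries and 3.85, 3.95 and 4.2 in full libraries. It rose most of the 4 in proportion, with a mean 2.3-fold higher than that of full libraries (log2 difference 1.03, SE 0.09, limma adjusted p = 1.14e-05).

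ARC had 2.21, 1.28 and 2.07 RPKM in depleted libraries, 1.19, 1.48 and 1.73 in repleted libraries and 1.43, 1.31 and 1.13 in full libraries. The second depleted library fell within the range of the others, and the log2 difference of 0.3 was not called (limma adjusted p = 0.13). Without that library ARC was called (limma adjusted p = 0.0285). Against repleted medium IER2, IER3 and IER5 were higher by 0.69, 1.08 and 0.73 on the log2(RPKM + 1) scale (limma adjusted p between 5.79e-07 and 6.24e-05).

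Among all tested genes 29.8% were higher in depleted against full medium. All 4 SP factors among the members rose. Of the 5 tested KLF, SP and EGR family genes outside the members, 0 were higher. The summed level of the 4 member SP factors was 109 ± 2.12 RPKM in depleted, 58.2 ± 4.51 in repleted and 55.4 ± 2.13 in full libraries (SD, n = 3 each). SP1, which binds the GC boxes of many housekeeping promoters, had 46.8, 47.3 and 48.6 RPKM in depleted libraries, 20.3, 21.9 and 20.4 in repleted libraries and 17.9, 21.6 and 20.0 in full libraries. The highest of the other 6 libraries did not come near the lowest depleted one, at a 2.4-fold higher mean than in full medium (log2 difference 1.22, SE 0.07, limma adjusted p = 3.11e-07). SP2, a more distant member of the family, had 21.9, 20.3 and 21.5 RPKM in depleted libraries, 10.2, 10.6 and 11 in repleted libraries and 10.4, 10.1 and 10.4 in full libraries. Replicates agreed closely within each medium, and the depleted mean was 2.06-fold higher than the full mean (log2 difference 0.97, SE 0.05, limma adjusted p = 4.43e-07). SP4, best known from neurons, had 7.62, 7.93 and 8.67 RPKM in depleted libraries, 3.09, 3.37 and 3.72 in repleted libraries and 3.98, 4.3 and 3.99 in full libraries. Repleted libraries lay a little below full ones, and depleted libraries far above both, with a mean 1.97-fold higher than that of full libraries (log2 difference 0.83, SE 0.09, limma adjusted p = 2.58e-05). SP3, which binds the same boxes as SP1, had 33.6, 31.6 and 32.4 RPKM in depleted libraries, 29.7, 19 and 21.1 in repleted libraries and 20.7, 20.2 and 22.6 in full libraries. The first repleted library stood well above its partners and close to the depleted ones, and the depleted mean was 1.54-fold higher than the full mean (log2 difference 0.6, SE 0.13, limma adjusted p = 0.00335). In depleted against repleted medium SP1, SP2, SP3 and SP4 were higher by 1.15, 0.94, 0.49 and 1.05 on the log2 scale (limma adjusted p = 4.59e-07, 5.78e-07, 0.00989 and 5.34e-06).

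Of 13 KLF factors tested, 5 rose (38.5%), 3 fell (23.1%) and 5 were not called in depleted against full medium. Among all tested genes 29.8% were higher and 31.2% lower there. In depleted against repleted medium 7 KLF factors rose (53.8%) and 3 fell (23.1%), beside 29.5% higher and 31.2% lower among all tested genes. The summed level of the 13 KLF factors was 107 ± 3.45 RPKM in depleted, 87.3 ± 1.08 in repleted and 88.8 ± 1.13 in full libraries (SD, n = 3 each). The widest split was between KLF10 and KLF11, close relatives both known as early response genes of TGF-beta. KLF10 had 10.5, 11.4 and 12 RPKM in depleted libraries, 4.08, 4.04 and 4.23 in repleted libraries and 4.22, 3.79 and 4.2 in full libraries. All depleted values were far above all others, at a 2.77-fold higher mean than in full medium (log2 difference 1.28, SE 0.08, limma adjusted p = 6.8e-07). KLF11, with a promoter window printed above, had 1.41, 1.59 and 1.42 RPKM in depleted libraries, 6.44, 6.87 and 6.91 in repleted libraries and 6.56, 7.22 and 7.33 in full libraries. It was the deepest fall of the KLF factors, with no overlap, and the depleted mean was 4.78-fold lower than the full mean (log2 difference -1.7, SE 0.08, limma adjusted p = 1.61e-07). Against repleted medium the log2 differences were 1.26 for KLF10 and -1.65 for KLF11 (limma adjusted p = 7.47e-07 and 1.92e-07).

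Of their nearer relatives, which like KLF10 and KLF11 bind the SIN3 repressor, KLF9 rose, with means of 5.2 RPKM in depleted and 4.06 in full libraries (log2 difference 0.29, limma adjusted p = 0.0112). KLF13 was not called, and its groups overlapped (log2 difference -0.15, limma adjusted p = 0.201). KLF16 had a log2 difference of 0.15 from full medium, not called (limma adjusted p = 0.0804), and was called higher against repleted medium at 0.21 (limma adjusted p = 0.0271). The call against repleted medium was lost without depleted replicate 2 or 3 or repleted replicate 2. Against full medium KLF16 was called without depleted replicate 1 and under median centring, with limma adjusted p down to 0.0393 over the settings tried.

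Among the KLF activators, KLF4, a reprogramming factor, had 9.99, 8.96 and 9.34 RPKM in depleted libraries, 4.89, 6.22 and 5.14 in repleted libraries and 5.72, 5.72 and 5.55 in full libraries. The depleted libraries did not overlap with the rest, with a mean 1.67-fold higher than that of full libraries (log2 difference 0.65, SE 0.09, limma adjusted p = 0.000166). KLF6, first described as a core promoter binding protein, had 17, 18.1 and 18.6 RPKM in depleted libraries, 10.8, 11.3 and 11.4 in repleted libraries and 9.7, 9.94 and 12.2 in full libraries. Depleted libraries again stood apart, at a 1.69-fold higher mean than in full medium (log2 difference 0.71, SE 0.08, limma adjusted p = 5.81e-05). KLF15, known from the control of metabolism in liver and muscle, had 11.1, 11.4 and 11.6 RPKM in depleted libraries, 6.2, 6.05 and 5.76 in repleted libraries and 5.27, 5.21 and 5.07 in full libraries. Each group was narrow, with depleted far above repleted and repleted just above full, and the depleted mean was 2.19-fold higher than the full mean (log2 difference 1.0, SE 0.06, limma adjusted p = 8.73e-07). Log2 differences from repleted medium were 0.71 for KLF4, 0.64 for KLF6 and 0.82 for KLF15. KLF5 had a log2 difference of 0.17 from full medium, not called (limma adjusted p = 0.115), and was called at 0.35 against repleted medium (limma adjusted p = 0.00625). Without the second full library, or under quantile normalization, it was called against full medium as well. KLF2 and KLF7 were not called in any comparison, and KLF7 reached 1 RPKM in only 3 libraries.

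KLF3 and KLF12, repressors that recruit CtBP, both fell slightly. KLF3 averaged 10.4 RPKM in depleted and 12 in full libraries (log2 difference -0.19, limma adjusted p = 0.0237). KLF12 averaged 6.18 RPKM in depleted and 7.91 in full libraries (log2 difference -0.31, limma adjusted p = 0.0115). Leaving out the first or second library of the depleted or the full group took the KLF3 call away, as did median centring and quantile normalization, with limma adjusted p up to 0.0781 over the settings tried. Quantile normalization also ended the KLF12 call against full medium (limma adjusted p = 0.0818). KLF12 was likewise called against repleted medium at -0.24 (limma adjusted p = 0.0408), a call that was lost when any full library, depleted replicate 1 or 2, or repleted replicate 2 or 3 was left out, with limma adjusted p up to 0.27 over the settings tried.

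The dual-specificity phosphatases (DUSP), which remove phosphate from MAP kinases, had 3 of 8 higher (37.5%), 3 lower (37.5%) and 2 not called in depleted against full medium, beside 29.8% higher and 31.2% lower among all tested genes. Of the 4 nuclear, inducible ones, DUSP1 rose and DUSP2, DUSP4 and DUSP5 fell. DUSP1, itself an immediate early gene, had 23.3, 22.7 and 23.7 RPKM in depleted libraries, 15.1, 16.5 and 15.9 in repleted libraries and 15.5, 14.7 and 15.6 in full libraries. Depleted libraries were narrowly grouped above the rest, with a mean 1.52-fold higher than that of full libraries (log2 difference 0.57, SE 0.05, limma adjusted p = 9.43e-06). DUSP2 had 0.19, 0.06 and 0.16 RPKM in depleted libraries, 0.86, 1.05 and 0.8 in repleted libraries and 1.2, 1 and 1.01 in full libraries. It was close to 0 in depleted libraries and passed the filter through 4 libraries of the other media, so a difference was built into its passing. Its depleted mean was 7.83-fold lower than the full mean (log2 difference -0.87, SE 0.14, limma adjusted p = 0.000509). DUSP4 averaged 1.01 RPKM in depleted and 1.56 in full libraries (log2 difference -0.34, limma adjusted p = 0.0383), and DUSP5 averaged 3.89 RPKM in depleted and 4.92 in full libraries (log2 difference -0.27, limma adjusted p = 0.01). Under quantile normalization DUSP5 was no longer called (limma adjusted p = 0.176 against full and 0.191 against repleted medium). The DUSP4 call was lost without any 1 of the depleted libraries, or without the first or second full or the second repleted library, with limma adjusted p up to 0.129 over the settings tried. Against repleted medium DUSP4 was lower by the same amount (log2 difference -0.34, limma adjusted p = 0.0393), and this call also went without any 1 depleted library, full replicate 2 or repleted replicate 2 or 3.

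Of the phosphatases that act on JNK and p38, DUSP10 had 4.24, 3.54 and 2.93 RPKM in depleted libraries, 1.41, 1.53 and 2.15 in repleted libraries and 1.6, 2.13 and 2.33 in full libraries. Its depleted libraries varied but lay above all others, at a 1.77-fold higher mean than in full medium (log2 difference 0.6, SE 0.16, limma adjusted p = 0.00891). DUSP8 averaged 5.81 RPKM in depleted, 4.86 in repleted and 3.94 in full libraries and was called higher against full medium (log2 difference 0.47, limma adjusted p = 0.00271) but not against repleted medium (log2 difference 0.22, limma adjusted p = 0.0859). The pseudogene DUSP8P5 averaged 1.59 RPKM in depleted, 1.19 in repleted and 0.91 in full libraries, and reads of near-identical copies may be split between them, so the DUSP8 value is uncertain. DUSP16 was not called (log2 difference 0.02, limma adjusted p = 0.843). DUSP6, the cytoplasmic phosphatase of ERK, had 2.06, 0.83 and 1.07 RPKM in depleted libraries, 1.57, 2.04 and 1.42 in repleted libraries and 2.36, 1.52 and 1.88 in full libraries. The first depleted library was as high as the full ones, and the log2 difference of -0.36 was not called (limma adjusted p = 0.158). Without it DUSP6 was called lower (limma adjusted p = 0.0216).

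The SPRY and SPRED proteins dampen RAS and ERK signalling at the membrane. Among all tested genes 31.2% were lower and 29.8% higher in depleted against full medium. Of the 4 tested SPRY and SPRED members, 3 were lower and 0 higher, at an unadjusted limma p under 0.05 too. Their summed level was 28.4 ± 2.03 RPKM in depleted, 41.4 ± 1.53 in repleted and 42.5 ± 2.18 in full libraries (SD, n = 3 each). SPRY1 had 6.42, 4.41 and 6.22 RPKM in depleted libraries, 11.6, 11.7 and 11.3 in repleted libraries and 10.6, 11.8 and 12.9 in full libraries. All depleted libraries were below all others, and the depleted mean was 2.07-fold lower than the full mean (log2 difference -0.94, SE 0.12, limma adjusted p = 0.000106). SPRED1, which brings neurofibromin to RAS, had 1.18, 2.15 and 1.66 RPKM in depleted libraries, 3.23, 3.91 and 3.81 in repleted libraries and 3.57, 3.6 and 4.35 in full libraries. Its depleted values spread more widely but stayed below the rest, with a mean 2.31-fold lower than that of full libraries (log2 difference -0.87, SE 0.15, limma adjusted p = 0.000589). SPRED2 had 4.33, 4.51 and 4.53 RPKM in depleted libraries, 9.19, 9.01 and 9.44 in repleted libraries and 8.74, 9.64 and 10.4 in full libraries. The depleted libraries were nearly equal, at a 2.15-fold lower mean than in full medium (log2 difference -0.95, SE 0.07, limma adjusted p = 3.35e-06).

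SPRY2 was the most abundant of these inhibitors and was not called, at means of 16 RPKM in depleted and 16.4 in full libraries (log2 difference -0.04, limma adjusted p = 0.697). SPRY4 was not tested and had 0.66, 0.49 and 0.62 RPKM in depleted, 0.88, 0.75 and 0.78 in repleted and 0.73, 0.95 and 0.86 in full libraries. Against repleted medium SPRY1, SPRED1 and SPRED2 were lower, with log2 differences of -0.92, -0.82 and -0.9 (limma adjusted p between 4.67e-06 and 0.000891).

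CTGF and CYR61 encode matrix-associated proteins of the CCN family and are common readouts of SRF and of YAP with TEAD. CTGF had 5.26, 4.98 and 4.8 RPKM in depleted libraries, 0.53, 0.97 and 0.43 in repleted libraries and 0.82, 0.39 and 1.03 in full libraries. This was the largest rise among the members, and the depleted mean was 6.71-fold higher than the full mean (log2 difference 1.8, SE 0.17, limma adjusted p = 1.68e-05). The log2 difference from repleted medium was 1.88 (limma adjusted p = 1.22e-05). CTGF passed the filter in only 4 libraries, all 3 depleted ones among them, so a difference was built into its passing. CYR61 averaged 6.79 RPKM in depleted, 5.5 in repleted and 5.74 in full libraries. It was not called against full medium (log2 difference 0.2, limma adjusted p = 0.101), although the depleted libraries lay above the full ones without overlap. Median centring and quantile normalization each gave a call there, with limma adjusted p down to 0.0139 over the settings tried. CYR61 was called against repleted medium although those libraries overlapped (log2 difference 0.26, limma adjusted p = 0.0432). That call was lost when any full library, or replicate 1 or 3 of either other group, was left out.

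The ID proteins bind E proteins and keep them off DNA, and their genes respond to BMP signals. None of ID1, ID2 and ID3 was called in depleted against full medium, beside 29.8% higher and 31.2% lower among all tested genes. At an unadjusted limma p under 0.05 there were 0 of them too, and 3 genes are few to set beside these shares. ID2, the most abundant, averaged 30.5 RPKM in depleted, 31.5 in repleted and 29.7 in full libraries, and it was called higher against full medium only without full replicate 3 (limma adjusted p = 0.0455). ID3 had 10.8, 11.2 and 10.6 RPKM in depleted libraries, 18.8, 14 and 16.3 in repleted libraries and 10.8, 8.01 and 9.49 in full libraries. The repleted libraries were the highest, without overlap with either other group, while depleted and full libraries overlapped. ID3 was called lower in depleted against repleted medium (log2 difference -0.54, SE 0.12, limma adjusted p = 0.00297), and its log2 difference of 0.73 in repleted against full medium was the largest among the members there but not called (limma adjusted p = 0.152).

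In repleted against full medium the median size of the members' differences was 0.06 on the log2 scale, against 0.07 for all tested genes. At an unadjusted limma p under 0.05 there were 6 of 50 members (12%), namely JUN, EGR1, KLF15, SP4, DUSP8 and ID3, beside 7.76% of all tested genes. Of these 6, EGR1, KLF15, DUSP8 and ID3 were higher in repleted libraries, and JUN and SP4 were lower. The 5 genes called in the whole table were MT2A, HMOX1, RP3-365I19.2, FTL and MT1F, all lower in repleted libraries.

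Genes that work with the members were looked at in 9 lists. Their counts in depleted against full medium stand beside 29.8% higher and 31.2% lower among all tested genes. Among dimer partners of AP-1, 6 of 10 tested genes were higher in depleted against full medium and 1 was lower. MAFG, a small MAF protein, averaged 29.1 RPKM in depleted and 14 in full libraries (log2 difference 1.01, limma adjusted p = 7.54e-07), and BATF3 averaged 2.65 RPKM in depleted and 11.7 in full libraries (log2 difference -1.81, limma adjusted p = 1.54e-07). Of 5 tested SRF partners, ELK4 rose (log2 difference 0.6, limma adjusted p = 0.000293) and ELK3 fell (log2 difference -1.2, limma adjusted p = 7.64e-06). Of 14 other immediate early genes, 5 rose (35.7%) and 4 fell (28.6%), shares near those of all tested genes. GADD45B, a stress gene that acts on p38 and JNK signalling, averaged 45.7 RPKM in depleted and 16.3 in full libraries (log2 difference 1.44, limma adjusted p = 1.06e-07). MYC, a growth regulator, averaged 23.6 RPKM in depleted and 42.1 in full libraries (log2 difference -0.81, limma adjusted p = 7.45e-07). The antiproliferative genes BTG1 and BTG2 moved in opposite directions, by log2 differences of 1.2 and -0.78 (limma adjusted p = 1.33e-08 and 1.87e-06).

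Of 24 ERK cascade genes, 10 were higher (41.7%) and 7 lower (29.2%) in depleted against full medium, with a median log2 difference of 0.1. The receptors FGFR3, FGFR1 and EGFR and the kinase RPS6KA4, which phosphorylates histone H3 at immediate early genes, fell, with log2 differences of -1.61, -1.37, -1.15 and -1.41 (limma adjusted p between 1.94e-06 and 1.05e-05). Of 19 genes of the JNK, p38 and ERK5 cascades, 6 were higher (31.6%) and 5 lower (26.3%). Among all tested genes 29.8% were higher and 31.2% lower, so the shares of the cascades lay near the background. MAPK9, a JNK kinase, was higher (log2 difference 0.64, limma adjusted p = 1.88e-06) and MAP2K6, which activates p38, was lower (log2 difference -1.24, limma adjusted p = 4.52e-05).

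Of 5 tested KLF, SP and EGR family genes outside the members, 0 were higher and 3 lower in depleted against full medium (limma adjusted p under 0.05), namely WT1, SP9 and SP6, with log2 differences of -1.26, -1.09 and -0.75, and 0 were higher at an unadjusted limma p under 0.05. WT1 and SP6 stayed below 1 RPKM in depleted libraries and passed the filter through the other media, so a difference was built into their passing. Of 11 other DUSP, SPRY and SPRED genes, 2 were higher (18.2%) and 5 lower (45.5%). DUSP9, a phosphatase of ERK, averaged 2.16 RPKM in depleted and 10.3 in full libraries (log2 difference -1.85, limma adjusted p = 1.1e-07). Among 11 YAP and TEAD genes 4 were higher (36.4%) and 5 lower (45.5%). For this and the other lists, 29.8% of all tested genes were higher and 31.2% lower. TEAD4 fell to 5.25 RPKM in depleted libraries, against 24.8 in full libraries (log2 difference -2.05, limma adjusted p = 3.85e-08). ANKRD1, like CTGF a YAP target, was higher (log2 difference 1.08, limma adjusted p = 0.00018), but it passed the filter only through depleted libraries, so this too was built into its passing. Among 11 genes of ID partners, BMP signalling and ID4, 2 were higher (18.2%) and 3 lower (27.3%). ID4 averaged 71.4 RPKM in depleted and 32.2 in full libraries (log2 difference 1.13, limma adjusted p = 3.6e-08). In repleted against full medium 0 of the 110 tested genes of these 9 lists were called (limma adjusted p under 0.05), and 9 had an unadjusted p under 0.05.

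**Figure D4:**
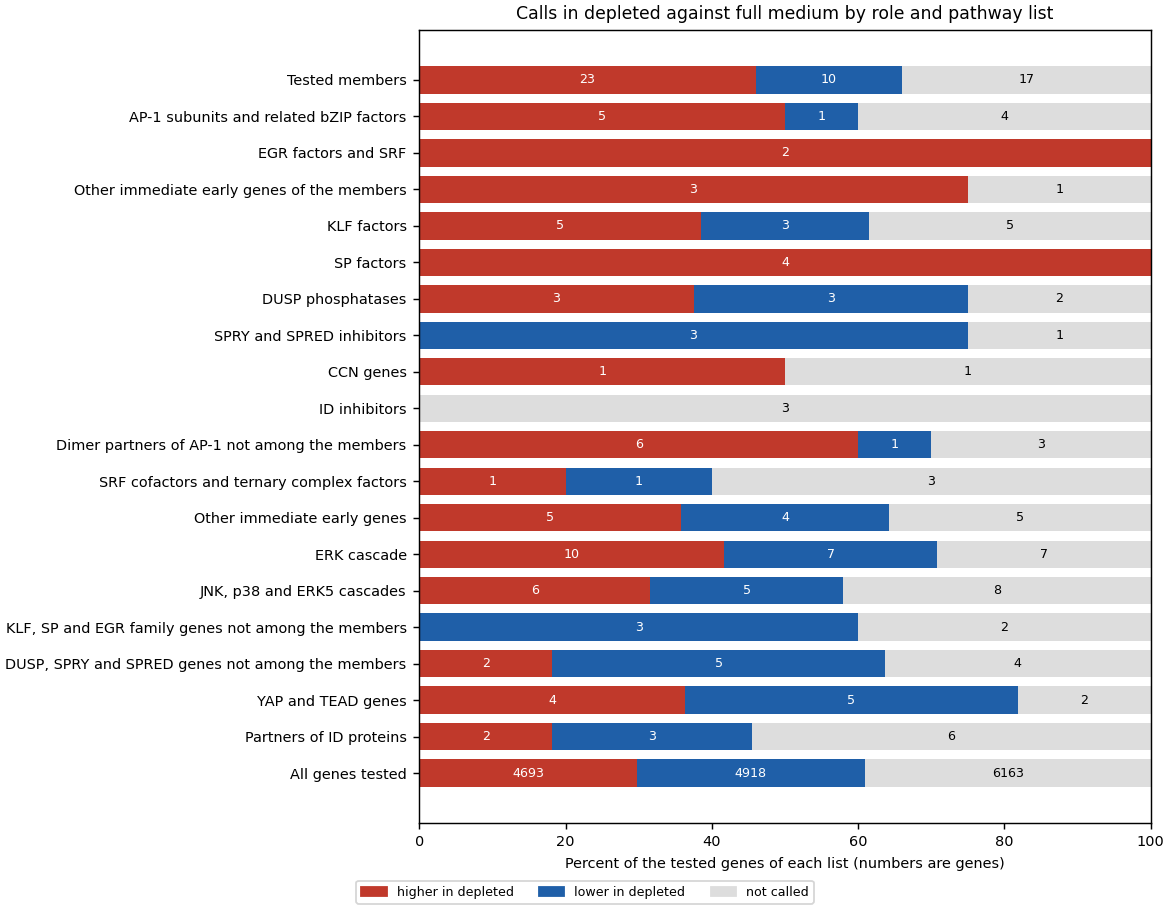
Percent of the tested genes of each list (x axis) that were higher (red), lower (blue) or not called (grey) in depleted against full medium, with the number of genes written in each bar. The bar of the 50 tested members holds 23 higher and 10 lower, above the bars of their roles and of the 9 lists of related genes, and the bar of all tested genes stands last with 4693 higher and 4918 lower.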

How the data were processed

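RNA of 9 HEK293 libraries was analysed, 3 each after 36 h in depleted, repleted and full medium. The values deposited by the authors are log2(RPKM + 1) per Ensembl gene, and the table holds 20320 blank rows beside its 57766 genes. The submitters' processing notes name RSEM 1.2.6, Bowtie 1.0.1, BWA 0.7.12-r1039, bedtools 2.25.0.3 and the builds hg19 and GRCh37, with no role or order. Further scaling between libraries is not given in the sources used here. Once the log was undone, 100% of the values were multiples of 0.01 RPKM (tolerance 2e-04 RPKM).

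The table holds no read counts. Low values of short genes (effective length 100 to 500 nucleotides) are spaced by what 1 read is worth, which gave an estimate of depth, and 57.6% to 64.7% of the values checked in a library were whole reads within 0.1 read, so no count model was run and no counting interval is given.

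Differences were tested with limma 3.58.1 in R 4.3.3 on the deposited log2 values, with a variance trend, from a model of all 9 libraries with a mean for each group. A gene entered if 3 or more libraries reached 1 RPKM, which left 15774 genes, with Benjamini-Hochberg adjustment over all of them and a threshold of 0.05. The fit was tested on simulated data. Members and lists were chosen with earlier results of these data known. Values in every library are given for members called in depleted against full medium with a log2 difference of at least 0.5. Such values are also given for FOSL2, JUN, FOS, SRF, ARC, DUSP6, ID3 and the untested members except EGR2, chosen after their values were seen. Up to 4 genes of each related list with the smallest p could be named. Standard deviations are over 3 libraries. Promoter windows came from RefSeq. Alternatives were another pseudocount, other filters, only the libraries compared, a replicate block, median centring, quantile normalization, a stricter threshold and each library left out in turn. Python 3.11.15 and matplotlib 3.10.9 made the figures.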

Additional observations from a re-analysis of the deposited data

How the results depend on the processing

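Of the member calls, 28 of 33 in depleted against full medium and 30 of 36 in depleted against repleted medium were kept under every setting that tested them, and 0 reversed. There were 17 settings, of which DUSP2 was tested in 16, since it fails the filter on mean level. The calls that were lost somewhere were KLF3, KLF9, KLF12, DUSP4 and DUSP5 against full medium and KLF3, KLF12, KLF16, DUSP4, DUSP5 and CYR61 against repleted medium. Of these, KLF9 against full medium and KLF3 against repleted medium were lost only at the stricter threshold of 0.01. Members called lower in depleted against full medium numbered 6 under quantile normalization, against 10 as reported, and those called higher numbered 25. Median centring gave 25 higher and 8 lower. These scalings moved the median of all genes by at most 0.0497 on the log2 scale. Against full medium, centring added calls of CYR61 and KLF16, and quantile normalization added calls of CYR61 and KLF5. Against repleted medium, centring and quantile normalization also ended with DUSP8 called, and centring with JUN called. In the whole table, repleted against full medium, with 5 genes called, gave 3 with a pseudocount of 0.1, 2 with no filter on low values, 2 with only the 6 libraries compared, 2 with the replicate block and 1 at a threshold of 0.01. The cause was not tested.

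Leaving out 1 library gave 23 to 25 members higher and 8 to 10 lower in depleted against full medium, 23 to 24 higher and 9 to 11 lower in depleted against repleted medium, and 0 in either direction in repleted against full medium. Over all genes it gave 8780 to 9723, 8784 to 9512 and 1 to 9 calls for these comparisons, with 9 calls without full replicate 1 and 1 without full or repleted replicate 3. Libraries that share a replicate number had residual correlations of -0.0144 to 0.0726, and those with other numbers -0.0609 to 0.0416. These ranges overlap and show no clear pairing by number, but with 3 libraries a group they cannot exclude it. With the replicate block 23 members were higher and 9 lower in depleted against full medium, and 24 higher and 10 lower in depleted against repleted medium. Depth limits EGR2, EGR4 and, in depleted libraries, DUSP2, whose levels rest on few reads.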
